A study of Rattus norvegicus with 132 samples.

Results

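The genes described here build sterols and fatty acids. They were chosen by symbol from 31 names, of which 30 have a row among the 21837 genes of the deposited tables. Fdps is not analysed here. By role, 6 genes encode enzymes of the mevalonate steps, 11 encode enzymes that make squalene and turn it into cholesterol, 6 encode regulators and 7 encode enzymes of fatty acid synthesis.

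RNA was sequenced from jejunum and colon epithelium of Sprague Dawley rats in 22 groups of 6 libraries. Irradiated rats received 5 fractions of 4 Gy to the abdomen, and their tissue was taken at day 4 or day 7. At each day the irradiated groups were rats given compound Kushen powder by mouth (called a pill in some sample descriptions), rats given compound Kushen injection, rats given the injected vehicle (0.25% Tween-80 in 25 mM HEPES), rats given the oral vehicle, and untreated rats. The remaining group of each tissue was neither irradiated nor treated. Both preparations are herbal extracts of the same name. Strain is the same throughout, and the labels give neither age nor sex. They call the libraries biological replicates but name no rats, so p-values measure the spread between libraries. Library names fall into 3 series by their leading digit. Series 1 and series 2 each supplied 3 libraries to each group of powder, oral vehicle, untreated and non-irradiated rats. Every injected group came from series 3 and was therefore compared only with other injected groups.

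Cells make cholesterol from acetyl-CoA through mevalonate, isoprenoid units, squalene and lanosterol. Many of these enzymes, and those that build fatty acids, are transcribed under the control of the SREBP factors. Scap carries SREBP from the endoplasmic reticulum for activation when membrane sterol is low, and the Insig proteins hold it back when sterol is high. The intestinal epithelium both absorbs and makes cholesterol, and renewing cells need it for new membrane.

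Promoter sequences are shown for 4 members named in the results below. Whether these sequences bear on the changes in transcript level was not tested. Hmgcs1, Idi1 and Msmo1 are enzymes whose transcripts were higher at day 7, and Insig1 is a regulator whose transcript was lower at day 7 in the jejunum. The sequences run from 250 bases before to 50 bases after the gene's start, 5′ to 3′ on the gene's own strand, and come from RefSeq (build GRCr8, a later build than that of the count tables). Capitals mark CCAAT, the core letters of the NF-Y box that often accompanies SREBP sites, or its complement ATTGG, and the letters CACNCCAC, a sterol regulatory element pattern, or their complement.
Hmgcs1 (chr2:53382054-53382353, plus strand): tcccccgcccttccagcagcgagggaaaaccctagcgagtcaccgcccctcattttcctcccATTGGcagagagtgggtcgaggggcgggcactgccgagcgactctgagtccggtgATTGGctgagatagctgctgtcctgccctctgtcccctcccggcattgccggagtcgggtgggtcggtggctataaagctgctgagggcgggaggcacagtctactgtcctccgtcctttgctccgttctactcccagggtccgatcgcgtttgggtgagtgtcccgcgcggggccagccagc
Idi1 (chr17:66547475-66547774, minus strand): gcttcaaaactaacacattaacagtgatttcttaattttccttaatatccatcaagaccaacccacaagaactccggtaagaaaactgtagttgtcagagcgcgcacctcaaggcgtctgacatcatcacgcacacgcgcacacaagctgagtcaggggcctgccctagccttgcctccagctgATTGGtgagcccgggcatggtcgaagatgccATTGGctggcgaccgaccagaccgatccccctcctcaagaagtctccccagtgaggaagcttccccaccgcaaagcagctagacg
Msmo1 (chr16:29746863-29747162, plus strand): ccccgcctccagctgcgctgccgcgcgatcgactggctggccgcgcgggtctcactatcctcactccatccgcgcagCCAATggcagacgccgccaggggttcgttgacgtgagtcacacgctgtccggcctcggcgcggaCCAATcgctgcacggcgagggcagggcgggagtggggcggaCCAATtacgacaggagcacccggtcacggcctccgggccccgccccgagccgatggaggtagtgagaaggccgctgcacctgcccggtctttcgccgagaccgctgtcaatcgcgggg
Insig1 (chr4:8057720-8058019, minus strand): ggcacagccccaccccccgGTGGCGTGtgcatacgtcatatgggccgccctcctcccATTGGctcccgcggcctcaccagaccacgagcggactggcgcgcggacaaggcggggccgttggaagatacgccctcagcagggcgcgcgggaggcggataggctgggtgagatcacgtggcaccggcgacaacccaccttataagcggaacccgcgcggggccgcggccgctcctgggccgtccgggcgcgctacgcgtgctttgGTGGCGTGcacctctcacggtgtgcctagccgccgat

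Hmgcs1 and Idi1 each held 2 CCAAT motifs in this window, Msmo1 held 3 and Insig1 held 1. Insig1 also held 2 CACNCCAC motifs, while the other 3 sequences held 0. The RefSeq promoter table used here held an entry for 23 of the 30 members. On either strand, CCAAT stood in a promoter of 17 of these 23 members (73.9%), against 37.5% of the 33469 promoters in the table. CACNCCAC stood in a promoter of 3 of the 23 (13.0%), namely Acat2, Ebp and Insig1, against 5.8% of all promoters. A member counted once if any of its entries held the motif, while the whole table was counted by entry. The percentages of members and of all promoters therefore differ in unit. The 2 motifs were counted independently of each other. A match describes letters in the window only.

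Library depth was 17.2 to 19.8 M counts (median 19.14 M). Levels are CPM, counts scaled to library size with TMM factors set within each tissue, separately for injected libraries. They are given as the lowest to highest of 6 libraries with the median. They compare libraries for 1 gene, not genes with each other. Changes are edgeR fold changes with a standard error (SE), and a gene is said to rise or fall where edgeR's p, adjusted by Benjamini-Hochberg across the whole table, was under 0.05. In bulk tissue, fewer cells of a type and less RNA per cell cannot be told apart. Summed epithelial markers, 7 genes, stood at 14200 to 25700 and 13500 to 22400 CPM in irradiated untreated jejunum at days 4 and 7, against 18000 to 24000 CPM in non-irradiated jejunum. In colon they stood at 12900 to 20000 and 14900 to 20300 CPM at days 4 and 7, against 13500 to 16900 CPM. Small intestinal enterocyte markers summed to 72400 to 83900 CPM in non-irradiated jejunum, against 39.5 to 670.0 CPM in non-irradiated colon. Tissue labels and markers therefore matched.

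In jejunum at day 4, 10 of the 30 members fell and 2 rose in irradiated untreated rats. Over the 12501 genes tested, 18.9% fell and 25% rose. The median log2 change was -0.40 over the members and 0.05 over all genes tested. It was -0.06 over the members within series 1 alone and -0.63 within series 2 alone. The groups did not overlap for 1 member higher and 3 lower, while 5.58% and 4.47% of all genes tested stood apart in those directions. Among the 17 sterol enzymes 6 fell, namely Mvk, Fdft1, Sqle, Tm7sf2, Sc5d and Dhcr7, and 0 rose. Of the 6 regulators Srebf1, Srebf2 and Stard4 fell. Of the 7 fatty acid genes Scd and Elovl6 rose and Acss2 fell. Replicate 1 of the untreated day 4 jejunum had 23.5% mitochondrial counts. Without it, a choice made after the data were seen, 15 members fell and 1 rose, with 36.1% of all genes called.

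Fdft1, squalene synthase and the first enzyme committed to sterols, lay at 11.6 to 21.7 CPM (median 14.7) in irradiated rats, against 36.3 to 65.8 CPM (median 46.2) in non-irradiated rats. It was 2.98-fold lower (log2 -1.57 ± 0.21 SE, adjusted p = 4.92e-07), and the groups did not overlap. Sqle, squalene epoxidase, lay at 4.12 to 14.7 CPM (median 7.49) in irradiated rats, against 14.7 to 18.8 CPM (median 17.0) in non-irradiated rats. It was 2.01-fold lower (log2 -1.01 ± 0.25 SE, adjusted p = 0.00189), and every irradiated library was below every non-irradiated one by a narrow margin. Tm7sf2, a sterol reductase of the ring steps, lay at 6.17 to 44.9 CPM (median 12.3) in irradiated rats, against 35.7 to 71.6 CPM (median 49.5) in non-irradiated rats. It was 3.20-fold lower (log2 -1.68 ± 0.40 SE, adjusted p = 0.00114), with overlapping groups. Dhcr7, the reductase that makes cholesterol from its last precursor, lay at 10.2 to 69.7 CPM (median 11.7) in irradiated rats, against 25.9 to 115 CPM (median 52.6) in non-irradiated rats. It was 2.85-fold lower (log2 -1.51 ± 0.42 SE, adjusted p = 0.00428). Mvk, mevalonate kinase and the single mevalonate enzyme that fell, lay at 13.8 to 30.3 CPM (median 18.9) in irradiated rats, against 23.2 to 38.5 CPM (median 29.0) in non-irradiated rats, and was 1.48-fold lower (log2 -0.56 ± 0.15 SE, adjusted p = 0.00372).

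Among regulators at day 4, Srebf2, which encodes the SREBP chiefly tied to cholesterol genes, lay at 32.8 to 69.3 CPM (median 56.4) in irradiated rats, against 84.9 to 121 CPM (median 104) in non-irradiated rats. It was 1.95-fold lower (log2 -0.97 ± 0.14 SE, adjusted p = 1.62e-06) without overlap between groups. Stard4, a carrier of cholesterol between membranes, lay at 44.5 to 97.4 CPM (median 60.2) in irradiated rats, against 62.9 to 161 CPM (median 102) in non-irradiated rats, and was 1.55-fold lower (log2 -0.64 ± 0.16 SE, adjusted p = 0.00161). Srebf1, which encodes the SREBP chiefly tied to fatty acid genes, lay at 70.2 to 164 CPM (median 84.1) in irradiated rats, against 107 to 205 CPM (median 155) in non-irradiated rats, and was 1.53-fold lower (log2 -0.61 ± 0.25 SE, adjusted p = 0.0413). The fatty acid genes went both ways. Scd, which desaturates stearoyl-CoA, lay at 1.14 to 2.29 CPM (median 1.78) in irradiated rats, against 0 to 0.555 CPM (median 0.215) in non-irradiated rats. It was 6.77-fold higher (log2 2.76 ± 0.37 SE, adjusted p = 6.46e-07), with no overlap. The 6 non-irradiated jejunum libraries held 23 Scd counts in all (exact 95% Poisson interval 14.6 to 34.5, counting error only), so the size of this fold rests on few counts. Elovl6, which elongates palmitate, lay at 32.6 to 82.1 CPM (median 55.8) in irradiated rats, against 27.3 to 48.7 CPM (median 36.0) in non-irradiated rats, and was 1.58-fold higher (log2 0.66 ± 0.22 SE, adjusted p = 0.0136). Acss2, which makes acetyl-CoA from acetate, lay at 6.10 to 19.1 CPM (median 12.7) in irradiated rats, against 15.2 to 34.7 CPM (median 24.2) in non-irradiated rats, and was 1.90-fold lower (log2 -0.92 ± 0.23 SE, adjusted p = 0.00193).

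**Figure D1:**
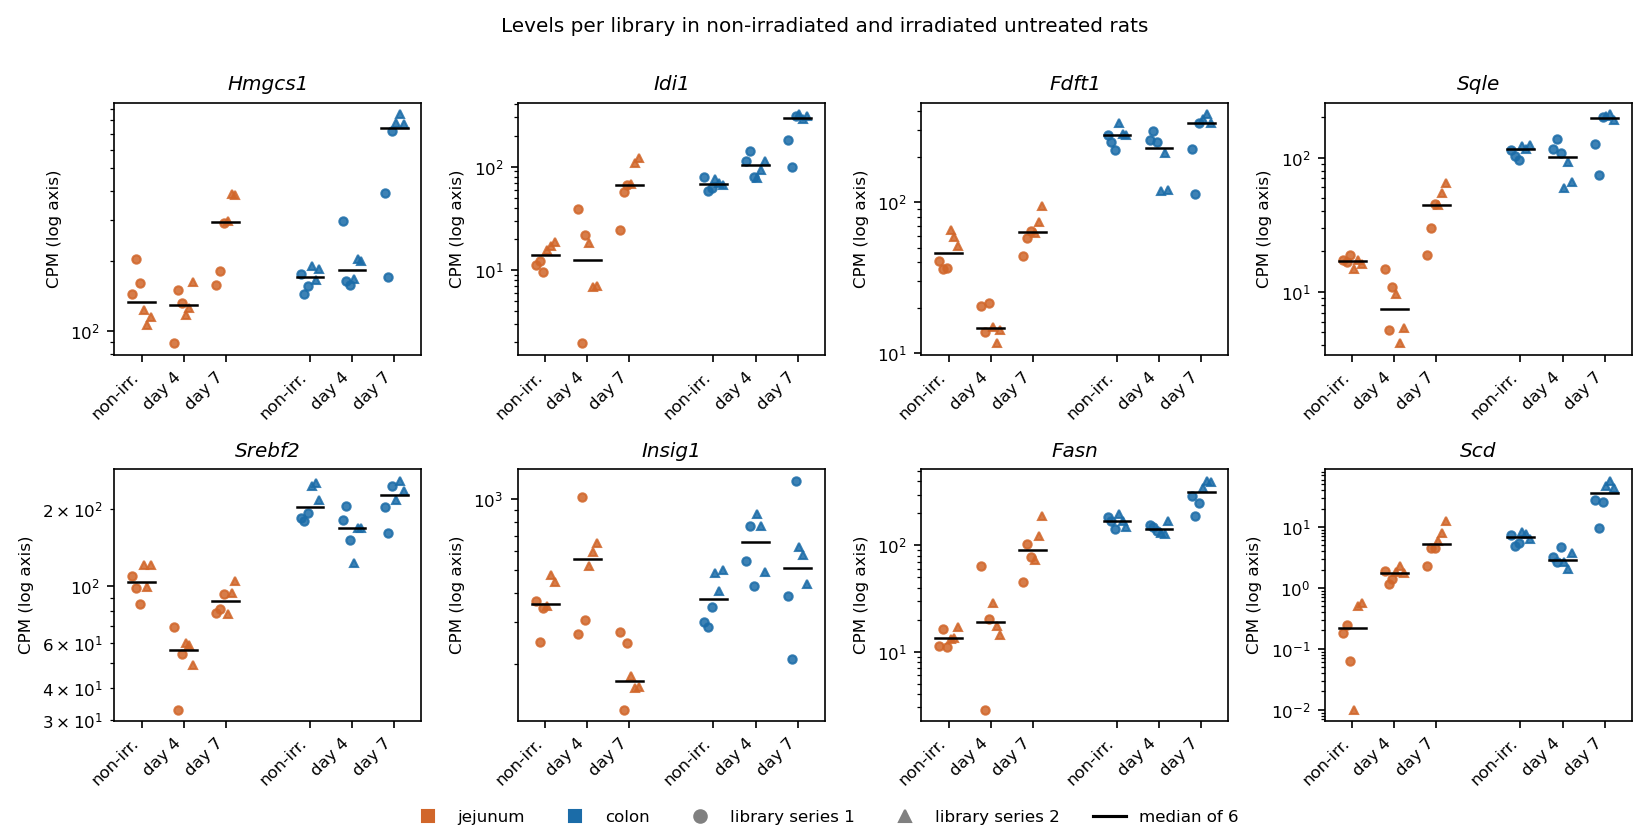
Level of 8 members in each library, in CPM on a log axis, for non-irradiated, day 4 and day 7 irradiated untreated rats, with jejunum left of colon. Circles are series 1, triangles series 2, and the line is the median. A library with 0 counts is drawn at 0.01 CPM. Sqle and Fdft1 in jejunum lie lowest at day 4, and Scd in jejunum is higher at both days than in any non-irradiated library.

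At day 7 most enzymes of both pathways stood above their non-irradiated level in jejunum. Of the 30 members 18 rose and 4 fell in irradiated untreated rats, while 31.4% of all genes tested rose and 27.4% fell. The median log2 change was 0.58 over the members and 0.02 over all genes. Of the 6 mevalonate enzymes 5 rose, of the 11 later sterol enzymes 8 rose and Tm7sf2 fell, and of the 7 fatty acid genes 5 rose. Of the 6 regulators 0 rose, and Srebf1, Insig1 and Insig2 fell. The groups did not overlap for 8 members, all higher: Idi1, Sqle, Lss, Hsd17b7, Fasn, Acaca, Scd and Elovl6. Over all genes tested the groups stood apart in the higher direction for 15.5% and in the lower direction for 11.5%.

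Idi1, which isomerises the isoprenoid unit, lay at 24.5 to 122 CPM (median 67.2) in irradiated rats, against 9.60 to 18.5 CPM (median 14.1) in non-irradiated rats. It was 5.30-fold higher (log2 2.41 ± 0.43 SE, adjusted p = 2.1e-05). Acat2, the cytosolic thiolase of the entry step, lay at 33.5 to 84.6 CPM (median 61.4) in irradiated rats, against 16.5 to 36.1 CPM (median 22.6) in non-irradiated rats, and was 2.58-fold higher (log2 1.37 ± 0.27 SE, adjusted p = 6.59e-05). Hmgcs1, cytosolic HMG-CoA synthase, lay at 158 to 386 CPM (median 293) in irradiated rats, against 106 to 204 CPM (median 134) in non-irradiated rats. It was 1.95-fold higher (log2 0.97 ± 0.22 SE, adjusted p = 0.000458), a smaller change than that of Idi1, with overlapping groups. Pmvk, phosphomevalonate kinase, lay at 22.6 to 34.3 CPM (median 30.1) in irradiated rats, against 12.8 to 31.4 CPM (median 17.3) in non-irradiated rats, and was 1.51-fold higher (log2 0.59 ± 0.16 SE, adjusted p = 0.00206).

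Among the later enzymes Hsd17b7, a reductase in the removal of methyl groups from the sterol ring, lay at 1.33 to 3.96 CPM (median 3.34) in irradiated rats, against 0.636 to 1.04 CPM (median 0.820) in non-irradiated rats. It was 3.62-fold higher (log2 1.86 ± 0.28 SE, adjusted p = 1.6e-06). Lss, which folds squalene epoxide into lanosterol, lay at 20.4 to 55.2 CPM (median 41.5) in irradiated rats, against 12.7 to 19.4 CPM (median 17.1) in non-irradiated rats, and was 2.45-fold higher (log2 1.29 ± 0.23 SE, adjusted p = 1.41e-05). Sqle lay at 18.9 to 64.9 CPM (median 44.5) in irradiated rats, against 14.7 to 18.8 CPM (median 17.0) in non-irradiated rats. It was 2.55-fold higher (log2 1.35 ± 0.25 SE, adjusted p = 3.44e-05), so it stood above the non-irradiated range at day 7 and below it at day 4. Msmo1, the methylsterol oxidase, lay at 44.9 to 142 CPM (median 104) in irradiated rats, against 39.8 to 64.2 CPM (median 46.2) in non-irradiated rats, and was 1.99-fold higher (log2 0.99 ± 0.23 SE, adjusted p = 0.000382). Cyp51, Nsdhl, Fdft1 and Ebp also rose, with log2 changes of 1.24, 0.57, 0.46 and 0.40. Tm7sf2 fell (log2 -0.91).

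The regulators did not follow the enzymes in jejunum at day 7. Srebf1 lay at 53.8 to 121 CPM (median 66.8) in irradiated rats, against 107 to 205 CPM (median 155) in non-irradiated rats, and was 2.04-fold lower (log2 -1.03 ± 0.25 SE, adjusted p = 0.000647). Insig2, which retains Scap in the endoplasmic reticulum, lay at 21.4 to 52.7 CPM (median 37.4) in irradiated rats, against 51.8 to 89.5 CPM (median 65.5) in non-irradiated rats, and was 1.79-fold lower (log2 -0.84 ± 0.28 SE, adjusted p = 0.0109). Insig1, its paralog and itself a known SREBP target, lay at 127 to 272 CPM (median 168) in irradiated rats, against 247 to 474 CPM (median 359.5) in non-irradiated rats. It was 1.94-fold lower (log2 -0.95 ± 0.36 SE, adjusted p = 0.0233), opposite in direction to the enzymes and with overlapping groups. Srebf2, Scap and Stard4 had log2 changes of -0.26, 0.09 and -0.03 that did not pass the test.

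The changes of largest size were in fatty acid synthesis. Scd lay at 2.26 to 12.6 CPM (median 5.22) in irradiated rats, against 0 to 0.555 CPM (median 0.215) in non-irradiated rats. It was 23.1-fold higher (log2 4.53 ± 0.37 SE, adjusted p = 1.45e-11), against the same 23 counts in non-irradiated jejunum. Acaca, acetyl-CoA carboxylase and the committed step, lay at 17.7 to 49.0 CPM (median 29.1) in irradiated rats, against 4.24 to 6.73 CPM (median 5.27) in non-irradiated rats, and was 5.78-fold higher (log2 2.53 ± 0.27 SE, adjusted p = 5.52e-09). Fasn, fatty acid synthase, lay at 45 to 187 CPM (median 89.7) in irradiated rats, against 11.1 to 17.1 CPM (median 13.4) in non-irradiated rats. It was 7.33-fold higher (log2 2.88 ± 0.41 SE, adjusted p = 7.69e-07), with every irradiated library above every non-irradiated one. Elovl6 lay at 52.8 to 125 CPM (median 95.8) in irradiated rats, against 27.3 to 48.7 CPM (median 36.0) in non-irradiated rats, and was 2.44-fold higher (log2 1.28 ± 0.22 SE, adjusted p = 1.02e-05). Acly, which makes cytosolic acetyl-CoA from citrate, rose as well (log2 1.14). Me1, malic enzyme and a source of NADPH, had a log2 change of -0.57 that did not pass the test.

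**Figure D2:**
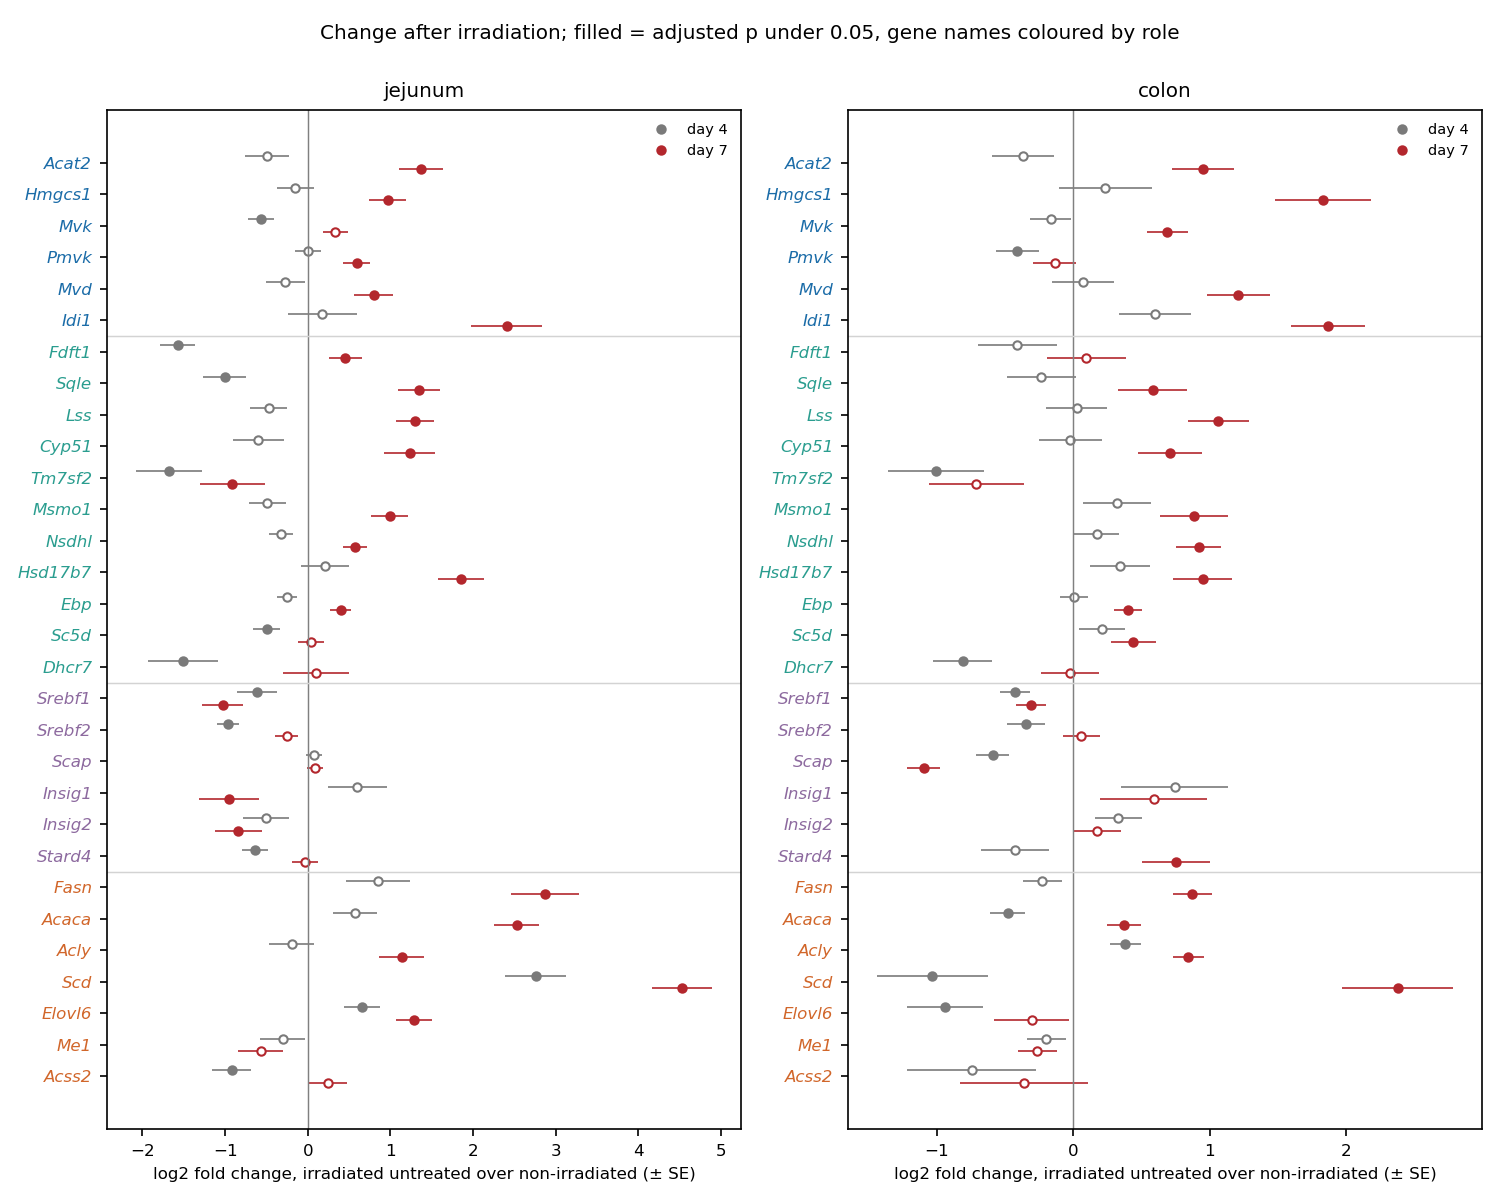
Log2 change in irradiated untreated over non-irradiated rats for each of the 30 members, as a point with its SE, with jejunum in the left panel and colon in the right. Grey marks day 4, red marks day 7, and filled points passed the test. In both tissues most sterol enzymes lie right of 0 at day 7, and Srebf1 lies left of 0 at both days.

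In colon at day 4, 9 members fell and 1 rose in irradiated untreated rats, while 22.3% of the 13306 genes tested fell and 24.6% rose. The median log2 change was -0.21 over the members and 0.02 over all genes. The groups did not overlap for 1 member higher and 5 lower, while 13.4% and 13.1% of all genes tested stood apart in those directions. The series differed in direction, with a median over the members of 0.04 within series 1 alone and -0.46 within series 2 alone. Within series 1, 0 members fell and 1 rose, and within series 2, 9 fell and 1 rose. Of the 17 sterol enzymes Pmvk, Tm7sf2 and Dhcr7 fell. Of the 6 regulators 3 fell, and of the 7 fatty acid genes 3 fell and Acly rose. Pmvk lay at 46.0 to 71.2 CPM (median 64.7) in irradiated rats, against 71.5 to 88.4 CPM (median 81.0) in non-irradiated rats, and was 1.33-fold lower (log2 -0.41 ± 0.16 SE, adjusted p = 0.0319) without overlap. Tm7sf2 lay at 5.85 to 23.9 CPM (median 16.1) in irradiated rats, against 24.3 to 36.8 CPM (median 28.2) in non-irradiated rats, and was 2.01-fold lower (log2 -1.01 ± 0.35 SE, adjusted p = 0.019), also without overlap. Dhcr7, at the end of the pathway, lay at 33.3 to 75.6 CPM (median 54.4) in irradiated rats, against 66.8 to 119 CPM (median 89.7) in non-irradiated rats, and was 1.75-fold lower (log2 -0.81 ± 0.22 SE, adjusted p = 0.00253).

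Scap, the escort of SREBP, lay at 94.3 to 167 CPM (median 135) in irradiated rats, against 168 to 223 CPM (median 193) in non-irradiated rats in the colon at day 4. It was 1.51-fold lower (log2 -0.59 ± 0.12 SE, adjusted p = 0.000215), and the groups did not overlap. Srebf1 lay at 46.3 to 66.6 CPM (median 58.3) in irradiated rats, against 59.3 to 93.2 CPM (median 79.9) in non-irradiated rats, and was 1.35-fold lower (log2 -0.43 ± 0.11 SE, adjusted p = 0.00197). Srebf2 lay at 123 to 206 CPM (median 169) in irradiated rats, against 179.5 to 253 CPM (median 205) in non-irradiated rats, and was 1.27-fold lower (log2 -0.35 ± 0.14 SE, adjusted p = 0.0346). Scap carries the SREBP precursors that Srebf1 and Srebf2 encode. Of the fatty acid genes, Acaca lay at 28.5 to 47.3 CPM (median 37.8) in irradiated rats, against 40.2 to 60.1 CPM (median 55.9) in non-irradiated rats, and was 1.40-fold lower (log2 -0.48 ± 0.13 SE, adjusted p = 0.00245). Elovl6 lay at 25.6 to 96.9 CPM (median 71.8) in irradiated rats, against 90.0 to 143 CPM (median 117) in non-irradiated rats, and was 1.92-fold lower (log2 -0.94 ± 0.28 SE, adjusted p = 0.00638). Scd lay at 2.08 to 4.69 CPM (median 2.91) in irradiated rats, against 4.83 to 8.24 CPM (median 6.80) in non-irradiated rats. It was 2.05-fold lower (log2 -1.03 ± 0.41 SE, adjusted p = 0.0364), with no overlap and in the direction opposite to jejunum. Acly lay at 133 to 174 CPM (median 142) in irradiated rats, against 99.1 to 124 CPM (median 112) in non-irradiated rats, and was 1.30-fold higher (log2 0.38 ± 0.12 SE, adjusted p = 0.00708) without overlap.

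In colon at day 7, 18 members rose and 2 fell, while 32.9% of all genes tested rose and 30.8% fell. The median log2 change was 0.59 over the members and 0.02 over all genes. The groups did not overlap for 4 members higher and 2 lower, while 20.4% and 21.3% of all genes tested stood apart in those directions. Of the 6 mevalonate enzymes 5 rose, of the 11 later enzymes 8 rose, of the 7 fatty acid genes 4 rose, and of the regulators Stard4 rose while Srebf1 and Scap fell. Idi1 lay at 99.7 to 322 CPM (median 297) in irradiated rats, against 58.5 to 78.9 CPM (median 68.0) in non-irradiated rats. It was 3.65-fold higher (log2 1.87 ± 0.27 SE, adjusted p = 3.15e-07), without overlap. Hmgcs1 lay at 170.0 to 850.5 CPM (median 745) in irradiated rats, against 145 to 191 CPM (median 170.4) in non-irradiated rats, and was 3.56-fold higher (log2 1.83 ± 0.35 SE, adjusted p = 2.82e-05). Mvd, the decarboxylase that ends the mevalonate steps, lay at 27.8 to 84.2 CPM (median 74.5) in irradiated rats, against 25.9 to 33.8 CPM (median 27.8) in non-irradiated rats, and was 2.31-fold higher (log2 1.21 ± 0.23 SE, adjusted p = 2.76e-05). Mvk lay at 31 to 68.1 CPM (median 59.7) in irradiated rats, against 31.6 to 36.7 CPM (median 33.7) in non-irradiated rats, and was 1.61-fold higher (log2 0.69 ± 0.15 SE, adjusted p = 0.000153).

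Among the ring enzymes of the colon at day 7, Nsdhl, a dehydrogenase in the removal of methyl groups, lay at 52.9 to 112 CPM (median 107) in irradiated rats, against 40.4 to 57.5 CPM (median 50.2) in non-irradiated rats. It was 1.89-fold higher (log2 0.92 ± 0.17 SE, adjusted p = 1.21e-05). Lss lay at 47.4 to 131 CPM (median 109.7) in irradiated rats, against 40.5 to 52.0 CPM (median 48.9) in non-irradiated rats, and was 2.09-fold higher (log2 1.06 ± 0.23 SE, adjusted p = 0.000115). Hsd17b7 lay at 4.73 to 9.75 CPM (median 8.16) in irradiated rats, against 3.13 to 4.69 CPM (median 4.11) in non-irradiated rats, and was 1.93-fold higher (log2 0.95 ± 0.22 SE, adjusted p = 0.000301), with no overlap. Ebp, the sterol isomerase, lay at 56.1 to 93.1 CPM (median 85.2) in irradiated rats, against 55.6 to 66.7 CPM (median 59.97) in non-irradiated rats, and was 1.32-fold higher (log2 0.40 ± 0.10 SE, adjusted p = 0.00116). For most of these enzymes 1 irradiated library stood low: replicate 2 of the untreated day 7 colon had a mean sterol enzyme level, the mean of log2(CPM + 1) over the 17 genes, of 5.83, against 6.51 to 7.08 in the other 5 libraries and 5.96 to 6.30 in non-irradiated colon. Without that library the same 20 members passed the test, with 60.9% of all genes called. For day 7 over day 4 in untreated colon, 22 members rose and 1 fell without it, with 39.3% of all genes called. With it 18 rose and 1 fell, with 36.5% called.

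Scap lay at 84.7 to 105 CPM (median 89.4) in irradiated rats, against 168 to 223 CPM (median 193) in non-irradiated rats in the colon at day 7. It was 2.14-fold lower (log2 -1.10 ± 0.12 SE, adjusted p = 3.13e-09), without overlap. Stard4 lay at 55.3 to 158 CPM (median 142) in irradiated rats, against 60.5 to 82.7 CPM (median 73.8) in non-irradiated rats, and was 1.69-fold higher (log2 0.75 ± 0.25 SE, adjusted p = 0.00917). Srebf1 lay at 49.8 to 72.3 CPM (median 63.8) in irradiated rats, against 59.3 to 93.2 CPM (median 79.9) in non-irradiated rats, and was 1.24-fold lower (log2 -0.31 ± 0.11 SE, adjusted p = 0.0136), the direction it had in the other 3 irradiation comparisons. Among fatty acid genes, Acly lay at 161 to 244 CPM (median 208) in irradiated rats, against 99.1 to 124 CPM (median 112) in non-irradiated rats, and was 1.79-fold higher (log2 0.84 ± 0.12 SE, adjusted p = 1.33e-07), without overlap. Fasn lay at 188 to 406 CPM (median 316) in irradiated rats, against 144 to 198 CPM (median 169) in non-irradiated rats, and was 1.83-fold higher (log2 0.87 ± 0.14 SE, adjusted p = 2.76e-06). Scd lay at 9.72 to 57.7 CPM (median 36.1) in irradiated rats, against 4.83 to 8.24 CPM (median 6.80) in non-irradiated rats. It was 5.20-fold higher (log2 2.38 ± 0.41 SE, adjusted p = 5.45e-06), the largest change among the members called in this comparison, with no overlap. Acaca lay at 55.7 to 82.9 CPM (median 69.8) in irradiated rats, against 40.2 to 60.1 CPM (median 55.9) in non-irradiated rats, and was 1.29-fold higher (log2 0.37 ± 0.13 SE, adjusted p = 0.0112).

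The mitochondrial share of counts moved with these results in colon. It was 3.24 to 4.82% in untreated irradiated colon at day 7, against 10.4 to 14.2% in non-irradiated colon. With that share as a covariate, 0 of the 20 members called in colon at day 7 passed edgeR's test, while 263 of 13306 genes did. The median log2 change over the members was then 0.63, against 0.59 without the covariate. At day 4 in colon 5 of 10 members passed (31.5% of all genes), with a median of -0.18, against -0.21 without the covariate. In jejunum the share was 7.19 to 23.5% at day 4 and 5.39 ± 1.83% (SD, n = 6) at day 7, against 5.82 to 20.9% in non-irradiated rats, and with the covariate 12 members passed at day 4 and 22 at day 7. The libraries of series 1 and series 2 stood apart in some groups and overlapped in others. In non-irradiated jejunum the mean sterol enzyme level was 5.05 to 5.21 in series 2 and 4.65 to 4.76 in series 1. In non-irradiated colon it was 6.145 to 6.301 in series 2 and 5.955 to 6.2 in series 1, with overlap. Within series 1 alone, 4 members passed in jejunum at day 4 (15.0% of all genes) and 10 at day 7 (26.4%). In colon 1 passed at day 4 (15.9%) and 13 at day 7 (52.5%). Within series 2 alone, 17 passed in jejunum at day 4 (43.6%) and 20 at day 7 (59.1%). In colon 10 passed at day 4 (39.4%) and 15 at day 7 (45.3%). At day 7 the median over the members was 0.69 in jejunum and 0.465 in colon within series 1, and 0.59 in jejunum and 0.69 in colon within series 2.

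Proliferation markers moved with the day 7 rise. All 8 rose in both tissues, to a summed 176 to 567 CPM in irradiated jejunum, against 31 to 67.5 CPM in non-irradiated jejunum. In colon they summed to 563 to 929 CPM in irradiated rats, against 120.0 to 302 CPM in non-irradiated rats. Enterocyte markers in jejunum at day 7 summed to 11200 to 52500 CPM in irradiated rats, against 72400 to 83900 CPM in non-irradiated rats, and 4 of 6 tested fell. Colonocyte markers in colon summed to 888 to 11500 CPM at day 4 and 448 to 6030 CPM at day 7, against 20400 to 24800 CPM in non-irradiated rats, and 1 of 4 tested fell at each day. Fibroblast markers in colon summed to 29.5 to 105 CPM at day 4 and 13.1 to 254 CPM at day 7, against 4.99 to 13.1 CPM in non-irradiated rats, and 6 of 6 rose at each day. Adipocyte markers, which matter for fatty acid genes, summed to 40.2 to 93.3 CPM in irradiated jejunum at day 7, against 175 to 282 CPM in non-irradiated jejunum. In colon at day 7 they summed to 152 to 356 CPM in irradiated rats, against 81.8 to 191 CPM in non-irradiated rats. In colon 3 of 5 macrophage and 3 of 3 neutrophil markers rose at each day. The part of these markers in the member results was not tested.

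Other genes of the pathway, taken from 5 lists, moved in both directions. The SREBP machinery list holds 9 genes that process or degrade the factors. In jejunum 1 rose and 5 fell at day 4, and 2 rose and 2 fell at day 7. Rnf145, a ubiquitin ligase of the sterol response, rose in jejunum at day 7 (log2 2.57 ± 0.35 SE, adjusted p = 4.4e-07). At day 4 in jejunum Mbtps1, the protease that makes the first cut of SREBP, fell (log2 -0.43 ± 0.09 SE, adjusted p = 0.000334), as did Erlin1 (log2 -0.81 ± 0.21 SE, adjusted p = 0.00257). In colon 1 rose and 2 fell at day 4, led by Mbtps2, which makes the second cut (log2 0.43), and Erlin1 (-0.97). At day 7 in colon 2 rose, among them Mbtps2 (0.62), and 4 fell.

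Of the LXR receptors and their targets, which carry the response to excess sterol, 8 were tested in jejunum and 6 in colon. At day 4 in jejunum 1 rose and 1 fell: Abca1, which exports cholesterol, rose (log2 1.82 ± 0.44 SE, adjusted p = 0.0011) and Lpcat3, a phospholipid acyltransferase, fell (log2 -1.09 ± 0.35 SE, adjusted p = 0.0109). At day 7 in jejunum 1 rose, Abca1 (log2 1.61 ± 0.43 SE, adjusted p = 0.00185), and 6 fell, led by the receptor gene Nr1h2 (log2 -0.97 ± 0.18 SE, adjusted p = 2.89e-05). In colon 1 rose and 3 fell at day 4, and 0 rose and 4 fell at day 7. The leading colon genes were Lpcat3 and Nr1h2 at day 4 (log2 -0.58 and -0.45), and Nr1h2 and Mylip, a ligase acting on lipoprotein receptors, at day 7 (-0.85 and -1.89).

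Of 14 genes of cholesterol trafficking and esterification, 2 rose and 4 fell in jejunum at day 4, and 3 rose and 5 fell at day 7. Scarb1, a receptor for high-density lipoprotein, fell at day 4 (log2 -1.88 ± 0.26 SE, adjusted p = 8.66e-07) and at day 7 (log2 -2.59 ± 0.26 SE, adjusted p = 2.05e-09), and Npc2, a lysosomal sterol carrier, had log2 changes of -0.82 and -1.03, both past the test. In colon 2 rose and 2 fell at day 4, among them Cyp27a1, a sterol hydroxylase (-1.09), and Npc2 (0.37). At day 7 in colon 4 rose and 3 fell, led by the cholesteryl ester hydrolase Nceh1 (-2.17) and Cyp27a1 (-1.93). Of 6 genes on the isoprenoid branches, 1 rose and 0 fell at day 4 and 3 rose and 1 fell at day 7 in jejunum, with Pdss1, of coenzyme Q synthesis, at 1.40 and Coq2 at 0.46 on day 4 and 0.95 on day 7. In colon 2 rose and 1 fell at day 4, among them Nus1 (0.46) and Ggps1 (-0.29), and 3 rose and 1 fell at day 7, led by Pdss1 (0.92) and Ggps1 (-0.36).

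Further lipogenic genes, 18 tested in jejunum and 19 in colon, gave 5 higher and 4 lower in jejunum at day 4, and 8 higher and 2 lower at day 7. Scd2, a paralog of Scd, rose in jejunum at day 7 (log2 5.83 ± 0.51 SE, adjusted p = 1.01e-10), and how the counting treated reads shared by the pair is not stated. Acacb, the carboxylase tied to control of fat oxidation, rose at day 4 (log2 1.56 ± 0.17 SE, adjusted p = 1.64e-08) and day 7 (log2 1.42). Tecr, an enzyme of very long chain elongation, fell at day 4 (log2 -1.87 ± 0.30 SE, adjusted p = 8.73e-06). In colon 2 rose and 4 fell at day 4, with Acsl5, an acyl-CoA synthetase, at 1.30 and Tecr at -0.76, and 7 rose and 2 fell at day 7, with Hsd17b12, an elongation reductase, at 0.63 and Acsl5 at 1.25.

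Without irradiation the 2 tissues differed in these genes. For this comparison alone, levels are CPM with factors shared by both tissues, and the difference is the mean over series 1 and 2. In non-irradiated jejunum over colon, 6 of 30 members were called higher and 19 lower, while 29.8% of the 13741 genes tested were higher and 41.7% lower. The median log2 difference was -1.09 over the members and -0.205 over all genes. Scd differed most, at 0 to 0.648 CPM (median 0.250) in jejunum, against 4.20 to 7.24 CPM (median 5.90) in colon (log2 -4.27 ± 0.46 SE, adjusted p = 7.74e-13). Acaca lay at 4.91 to 7.86 CPM (median 6.11) in jejunum, against 34.5 to 52.2 CPM (median 48.9) in colon, and was 7.54-fold lower (log2 -2.92 ± 0.22 SE, adjusted p = 4.52e-19). Fasn lay at 12.8 to 20.0 CPM (median 15.7) in jejunum, against 123 to 174 CPM (median 147) in colon, and was 9.16-fold lower (log2 -3.19 ± 0.32 SE, adjusted p = 6e-14). Me1 went the other way, at 709 to 856 CPM (median 802) in jejunum, against 131 to 225 CPM (median 166) in colon, and was 4.74-fold higher (log2 2.25 ± 0.23 SE, adjusted p = 5.62e-14). The groups did not overlap for 18 members lower and 6 members higher in jejunum, as for 32.0% and 22.2% of all genes tested. All 8 proliferation markers and 3 of 5 adipocyte markers tested were also lower in jejunum. The summed level of the 6 adipocyte markers, scaled within each tissue, was instead 175 to 282 CPM in jejunum, against 81.8 to 191 CPM in colon. The part of these markers was not tested.

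Among sterol enzymes, Sqle lay at 17.0 to 21.8 CPM (median 19.8) in jejunum, against 82.6 to 108 CPM (median 99.7) in colon, and was 5.00-fold lower (log2 -2.32 ± 0.27 SE, adjusted p = 1.4e-11). Fdft1, the enzyme before it, lay at 42 to 76.2 CPM (median 53.9) in jejunum, against 189 to 293 CPM (median 242) in colon, and was 4.24-fold lower (log2 -2.08 ± 0.27 SE, adjusted p = 2.35e-10). Hsd17b7 lay at 0.738 to 1.22 CPM (median 0.949) in jejunum, against 2.69 to 4.12 CPM (median 3.57) in colon, and was 3.65-fold lower (log2 -1.87 ± 0.26 SE, adjusted p = 3.8e-09). Cyp51, lanosterol demethylase, lay at 69.3 to 146 CPM (median 94.4) in jejunum, against 258 to 399.8 CPM (median 309.5) in colon, and was 3.17-fold lower (log2 -1.67 ± 0.29 SE, adjusted p = 5.82e-07). Of the mevalonate enzymes Pmvk lay at 14.8 to 37.0 CPM (median 20.1) in jejunum, against 62.2 to 76.6 CPM (median 70.7) in colon, and was 3.10-fold lower (log2 -1.63 ± 0.17 SE, adjusted p = 1.82e-13). Idi1, Acat2 and Mvd were also lower in jejunum, with log2 differences of -1.86, -1.08 and -0.68, while Hmgcs1 and Mvk had 0.19 and 0.24 and did not pass the test.

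The regulators split between the tissues. Scap lay at 39.5 to 60.6 CPM (median 48.1) in jejunum, against 146 to 194 CPM (median 167) in colon, and was 3.55-fold lower (log2 -1.83 ± 0.11 SE, adjusted p = 3.44e-23). Insig2, which opposes it, lay at 60.01 to 104 CPM (median 76.5) in jejunum, against 12.0 to 15.3 CPM (median 12.2) in colon, and was 6.02-fold higher (log2 2.59 ± 0.25 SE, adjusted p = 8.56e-15). Srebf1 lay at 124 to 237 CPM (median 182) in jejunum, against 50.9 to 80.2 CPM (median 69.3) in colon, and was 2.67-fold higher (log2 1.42 ± 0.19 SE, adjusted p = 1.41e-09). Stard4 lay at 72.8 to 186 CPM (median 119.5) in jejunum, against 51.9 to 72.8 CPM (median 63.9) in colon, and was 1.91-fold higher (log2 0.93 ± 0.21 SE, adjusted p = 9.79e-05). Tm7sf2 and Sc5d were the other members called higher in jejunum (log2 1.33 and 0.66).

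The change with irradiation was itself compared between tissues, as the log2 change in jejunum minus that in colon. At day 4, 5 members had a more positive change in jejunum and 3 a more negative one, while 13.6% and 8.22% of all genes did. Scd differed by 3.84 (± 0.60 SE, adjusted p = 1.94e-06), Elovl6 by 1.66 (± 0.37 SE, adjusted p = 0.000625), Fasn by 1.14 (± 0.42 SE, adjusted p = 0.0423), Acaca by 1.11 (± 0.30 SE, adjusted p = 0.00462) and Scap by 0.72 (± 0.16 SE, adjusted p = 0.000568). In the negative direction Fdft1 differed by -1.12 (± 0.37 SE, adjusted p = 0.0221), Sc5d, a sterol desaturase, by -0.67 (± 0.23 SE, adjusted p = 0.0313) and Srebf2 by -0.57 (± 0.20 SE, adjusted p = 0.0321). So 4 of the 7 fatty acid genes had the more positive change in jejunum, and 2 sterol enzymes and Srebf2 the more negative one.

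At day 7 the difference was positive for 7 members and negative for 2, while 25.4% and 14.2% of all genes were called in those directions. Acaca differed by 2.25 (± 0.30 SE, adjusted p = 9.22e-09), Scd by 2.24 (± 0.58 SE, adjusted p = 0.00154), Fasn by 2.10 (± 0.42 SE, adjusted p = 7.07e-05) and Elovl6 by 1.68 (± 0.37 SE, adjusted p = 0.000211). These are the 4 fatty acid genes that also differed at day 4. Scap differed by 1.27 (± 0.16 SE, adjusted p = 2.07e-09), Hsd17b7 by 1.00 (± 0.35 SE, adjusted p = 0.0193) and Pmvk by 0.81 (± 0.23 SE, adjusted p = 0.00438). Insig1 differed by -1.47 (± 0.55 SE, adjusted p = 0.0268) and Insig2 by -0.93 (± 0.33 SE, adjusted p = 0.0212), so both Insig transcripts had the more negative change in jejunum. The remaining 15 sterol enzymes did not pass this test at day 7.

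**Figure D3:**
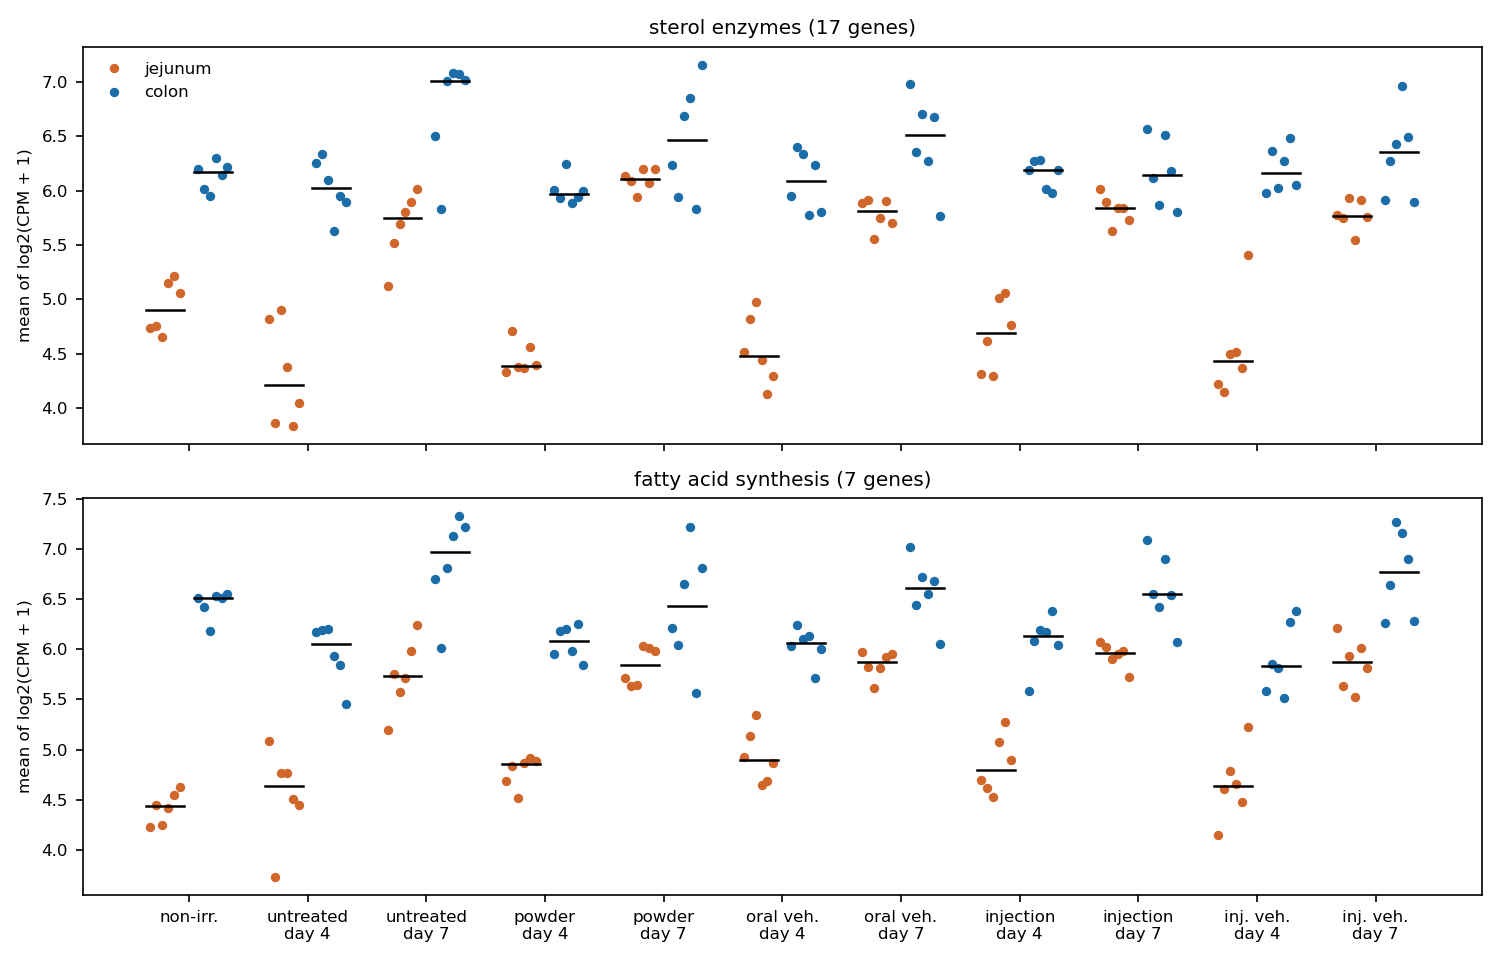
Mean level per library, as the mean of log2(CPM + 1), over the 17 sterol enzymes and over the 7 fatty acid genes, in 11 conditions per tissue. Jejunum, in orange, stands left of colon, in blue. Scaling factors were set separately for each tissue and for injected libraries, so levels share a scale only within those sets. In jejunum every day 7 library of each of the 5 irradiated arms lies above every day 4 library of that arm, for both gene groups.

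Day 7 was set against day 4 in each of 5 irradiated arms, which share no libraries with each other. In jejunum most sterol and fatty acid genes rose in every arm. Among the 30 members, 25 rose and 0 fell with powder, 22 rose and 1 fell with oral vehicle, 23 rose and 1 fell with injection, 25 rose and 1 fell with injected vehicle, and 24 rose and 1 fell in untreated rats. Of all genes tested in jejunum, 18.3% rose and 18.6% fell with powder, 11.2% and 14.4% with oral vehicle, and 19.7% and 21.2% with injection. The shares were 25.5% and 25.2% with injected vehicle, and 20.3% and 20.7% in untreated rats. The mean sterol enzyme level was 5.94 to 6.20 with powder, 5.56 to 5.91 with oral vehicle, 5.63 to 6.01 with injection, 5.55 to 5.93 with injected vehicle and 5.12 to 6.01 in untreated jejunum at day 7. At day 4 it was 4.34 to 4.71, 4.13 to 4.98, 4.29 to 5.06, 4.14 to 5.41 and 3.84 to 4.90 in the same order of arms. Within each of the 5 arms the days did not overlap. The untreated libraries are those of the irradiation comparisons above.

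In all 5 arms, 21 of 30 members rose in jejunum, against 6.42% of the 12137 genes tested in every arm. They were 5 of 6 mevalonate enzymes, 10 of 11 later enzymes, 5 of 7 fatty acid genes and the regulator Srebf2. Sqle showed log2 changes of 2.95 in powder, 2.12 in oral vehicle, 1.75 in injection, 2.07 in injected vehicle and 2.36 in untreated rats. With powder it lay at 47.6 to 82.1 CPM (median 73.2) at day 7, against 5.93 to 12.1 CPM (median 9.26) at day 4 (adjusted p = 2.15e-10). Fdft1 changed by 2.58, 1.87, 1.77, 1.92 and 2.03 on the log2 scale in the same order of arms. Idi1 changed by 2.72, 2.10, 1.70, 1.77 and 2.23. Fatty acid genes rose too. In untreated rats Acaca lay at 17.7 to 49.0 CPM (median 29.1) at day 7, against 2.69 to 14.2 CPM (median 7.31) at day 4. Its log2 changes over the 5 arms were 1.68, 1.45, 1.52, 1.80 and 1.96. The groups of 6 did not overlap for 24 members in powder, 16 in oral vehicle, 21 in injection, 14 in injected vehicle and 8 in untreated jejunum, all higher at day 7. Over all genes tested the share that stood apart in that direction was 11.5% in powder, 1.74% in oral vehicle, 8.3% in injection, 4.62% in injected vehicle and 3.24% in untreated jejunum.

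Other measures moved with day in jejunum. Small intestinal enterocyte markers summed to 9910 to 36900 CPM at day 7 in powder rats, against 56500 to 104000 CPM at day 4, to 5910 to 45900 at day 7 in oral vehicle rats, against 22300 to 93000 at day 4, and to 5040 to 26600 at day 7 in injection rats, against 31300 to 96400 at day 4. They summed to 9050 to 40800 CPM at day 7 in injected vehicle rats, against 24300 to 151000 CPM at day 4, and to 11200 to 52500 at day 7 in untreated rats, against 40900 to 153000 at day 4. Of the 6 such markers tested, 4 fell with powder, injection and injected vehicle, and 3 with oral vehicle and in untreated rats. The mitochondrial share of counts was 4.22 to 6.31% at day 7 in powder rats, against 7.34 to 10.6% at day 4, 4.25 to 7.84% at day 7 in oral vehicle rats, against 4.94 to 14.5% at day 4, and 6.13 to 9.15% at day 7 in injection rats, against 12.6 to 38.0% at day 4. It was 3.62 to 9.95% at day 7 in injected vehicle rats, against 7.78 to 31% at day 4, and 3.66 to 8.70% at day 7 in untreated rats, against 7.19 to 23.5% at day 4. The days did not overlap in this share with powder and with injection. The part of these measures in the member results was not tested.

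Not every member followed. Insig1 had log2 changes of -0.35 in powder, -1.34 in oral vehicle, -0.67 in injection, -1.14 in injected vehicle and -1.55 in untreated jejunum, and passed the test in oral vehicle, injected vehicle and untreated rats. In untreated rats it lay at 127 to 272 CPM (median 168) at day 7, against 268 to 1022 CPM (median 557) at day 4. Its fitted change was below 0 in every arm. Scap and Me1, neither of which passed the test in any jejunum arm, had log2 changes of 0.01 to 0.18 and -0.41 to -0.01. Srebf1 fell in 1 of 5 arms, injection (log2 -0.55). Whether an arm differs from another was tested only as the day difference of each preparation's effect, given below.

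In colon fewer members rose. Among the members, 14 rose and 2 fell with powder, 6 rose and 1 fell with oral vehicle, 5 rose and 3 fell with injection, 7 rose and 0 fell with injected vehicle, and 18 rose and 1 fell in untreated rats. Of all genes tested in colon, 26.2% rose and 23.1% fell with powder, 12.7% and 14.7% with oral vehicle, 19.2% and 21.6% with injection, 16% and 11.4% with injected vehicle, and 18% and 18.5% in untreated rats. In all 5 arms 4 of 30 members rose, Acat2, Fasn, Acaca and Scd, against 6.79% of the 13021 genes tested in every arm. The same 4 genes were among the 21 of the jejunum.

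Scd had the largest rise of the 4. In untreated colon it lay at 9.72 to 57.7 CPM (median 36.1) at day 7, against 2.08 to 4.69 CPM (median 2.91) at day 4, and its log2 changes were 2.73 in powder, 2.84 in oral vehicle, 2.88 in injection, 2.80 in injected vehicle and 3.41 in untreated rats. Fasn changed by 0.81, 0.71, 0.92, 0.90 and 1.10 in that order. Cholesterol enzymes were less even. Hmgcs1 had log2 changes of 1.54 in powder and 1.60 in untreated colon, both past the test, and of 0.87 with oral vehicle, 0.20 with injection and 0.37 with injected vehicle, which did not pass. Idi1 passed in 3 arms, powder (1.26), oral vehicle (1.01) and untreated (1.27). Lower at day 7 in colon were Scap in powder, oral vehicle and untreated rats (-0.54, -0.32 and -0.51), Srebf1 with powder (-0.29), and Insig1, Insig2 and Acss2 with injection (-1.56, -0.54 and -1.35). The mitochondrial share in colon was 2.97 to 4.71% at day 7 in powder rats, against 6.66 to 11.7% at day 4, 3.39 to 5.50% at day 7 in oral vehicle rats, against 5.63 to 11.5% at day 4, and 4.81 to 10.9% at day 7 in injection rats, against 7.88 to 13.2% at day 4. It was 4.62 to 8.16% at day 7 in injected vehicle rats, against 8.48 to 19.6% at day 4, and 3.24 to 4.82% at day 7 in untreated rats, against 7.80 to 10.8% at day 4. With this share as a covariate, 2 members passed in untreated colon, while 104 of 13306 genes did. The median log2 change over the members was then 0.84, against 0.62 without the covariate. In untreated jejunum 23 passed, with 38.7% of all genes called. All 8 proliferation markers rose at day 7 in every colon arm. In jejunum 6 of 8 rose with powder, 3 with oral vehicle, 7 with injection, and 8 with injected vehicle and in untreated rats. Their part was not tested.

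**Figure D4:**
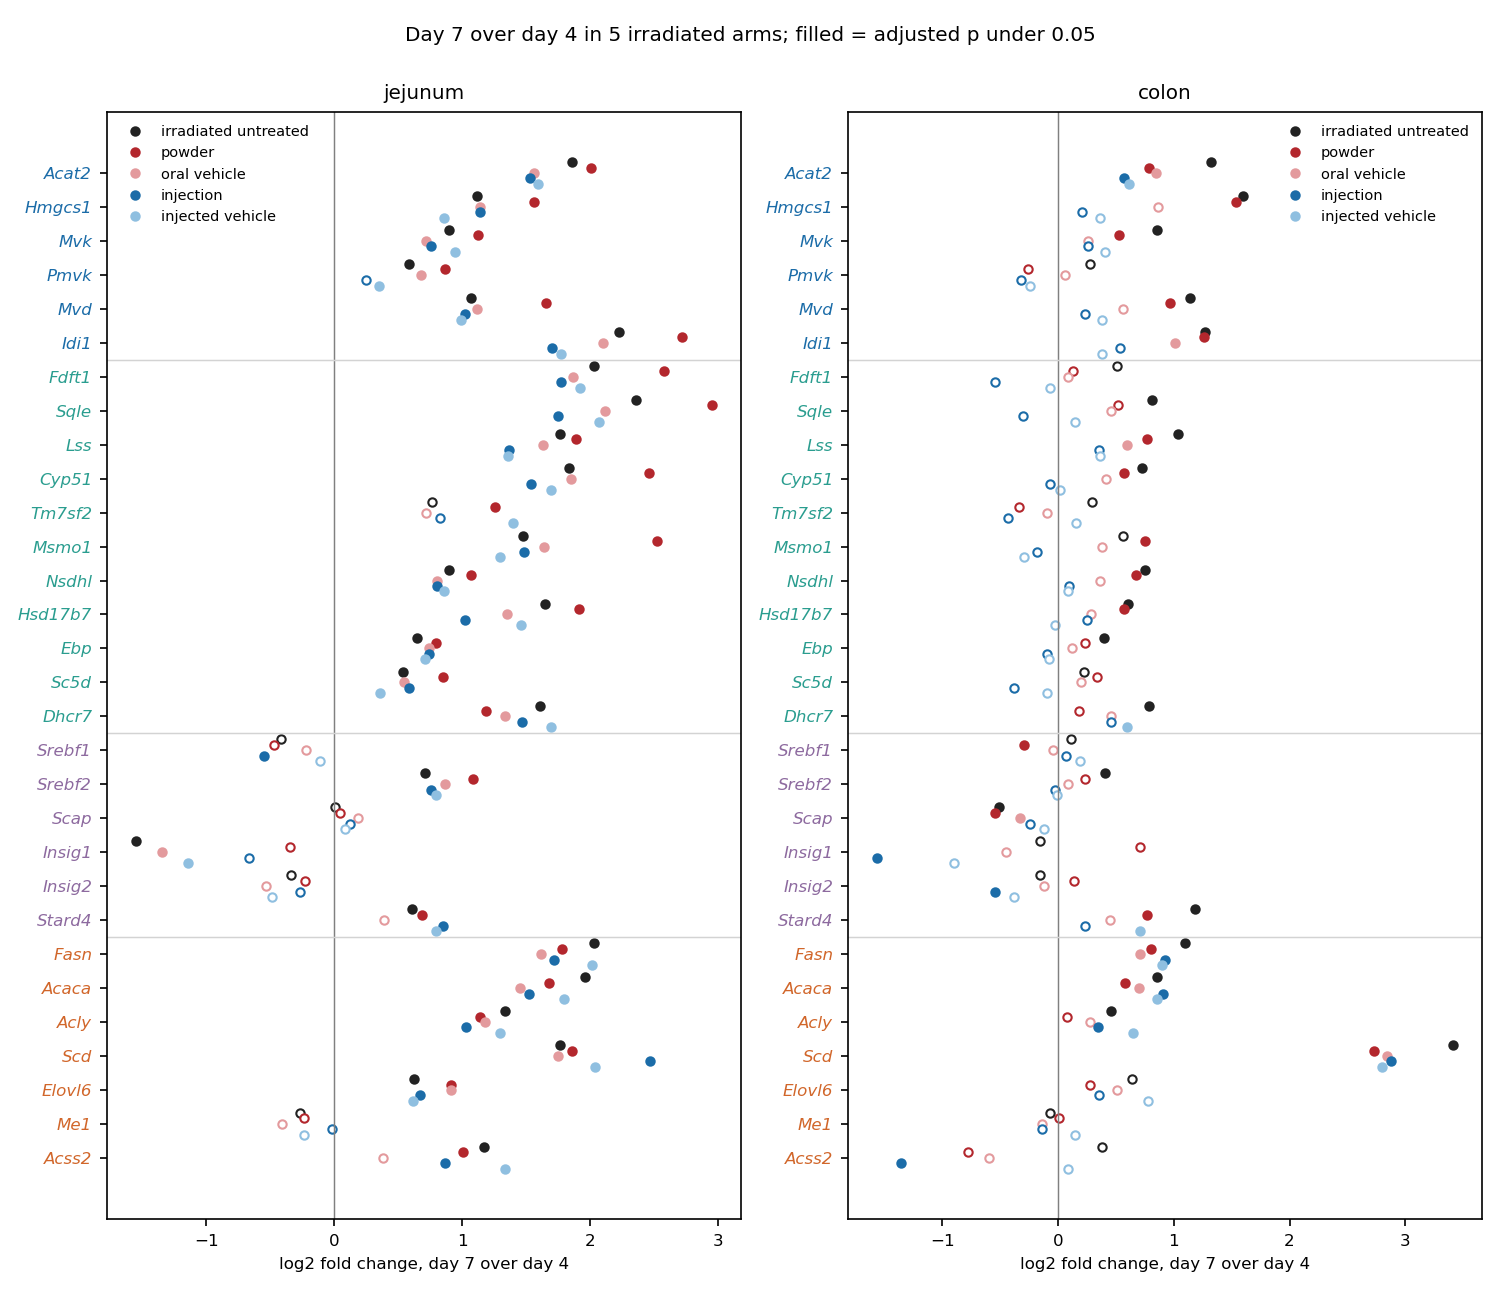
Log2 change at day 7 over day 4 for each of the 30 members in the 5 irradiated arms, jejunum left of colon. Each point is 1 arm, and filled points passed the test. In jejunum all 17 sterol enzymes lie right of 0 in all 5 arms and Insig1 lies left of 0, while in colon points spread around 0 for many enzymes and Scd lies right of 0 in all arms.

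Neither preparation changed a member past the test. Powder was compared with oral vehicle at each day and tissue, and edgeR called 0 of 30 members in all 4 comparisons. The share of all genes called was 11.8% in colon at day 4, 0% in colon at day 7, 0.008% in jejunum at day 4 and 0.008% in jejunum at day 7. DESeq2 also called 0 members. At an unadjusted p under 0.05 there were 2 members in colon at day 4, 0 in colon at day 7, 0 in jejunum at day 4 and 5 in jejunum at day 7. Over all genes tested, such a p was found for 28.3%, 3.47%, 4.17% and 3.57% in that order. Over the members, the 95% intervals of the log2 difference spanned at their widest -1.32 (Insig1) to 1.14 (Dhcr7) in jejunum at day 4 and -1.02 (Fasn) to 1.17 (Idi1) at day 7. In colon they spanned -1.76 (Insig1) to 1.38 (Acss2) at day 4 and -0.86 (Elovl6) to 1.22 (Acss2) at day 7. Differences up to these sizes lie within the intervals.

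The members with the smallest p in each powder comparison were as follows. In colon at day 4 Insig1 lay at 274 to 374 CPM (median 337) in powder rats, against 471 to 1038 CPM (median 523) in oral vehicle rats (log2 -0.96 ± 0.39 SE, adjusted p = 0.102), the groups not overlapping. Over all genes tested 1.15% stood apart in that direction. When only these 2 groups were fitted, Insig1 (log2 -0.98 ± 0.21 SE, adjusted p = 0.0289) and Mvd (log2 -0.45 ± 0.09 SE, adjusted p = 0.0288) passed edgeR's test. Srebf1 lay at 62.6 to 77.4 CPM (median 70.7) in powder rats, against 48.6 to 76.1 CPM (median 54.4) in oral vehicle rats (log2 0.25 ± 0.11 SE, adjusted p = 0.12). These 2 regulators went in opposite directions. At day 7 in colon Acly lay at 131 to 229.8 CPM (median 158) in powder rats, against 161 to 190.2 CPM (median 184) in oral vehicle rats (log2 -0.13 ± 0.11 SE, adjusted p = 1), and Elovl6 at 26.1 to 84.9 CPM (median 69.6) in powder rats, against 40.0 to 122 CPM (median 77.0) in oral vehicle rats (log2 -0.29 ± 0.28 SE, adjusted p = 1). In jejunum at day 4 Msmo1 lay at 23.1 to 32.2 CPM (median 27.4) in powder rats, against 19.8 to 57.4 CPM (median 35.5) in oral vehicle rats (log2 -0.40 ± 0.22 SE, adjusted p = 1), and Stard4 at 51.0 to 66.8 CPM (median 61.9) in powder rats, against 66.0 to 86.7 CPM (median 71.2) in oral vehicle rats (log2 -0.27 ± 0.16 SE, adjusted p = 1). All 4 of these pairs of groups overlapped.

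In jejunum at day 7 the 2 members with the smallest p between powder and its vehicle were Acss2 and Scap. Acss2 lay at 26.4 to 44.9 CPM (median 39.6) in powder rats, against 16.2 to 31.7 CPM (median 26.3) in oral vehicle rats (log2 0.58 ± 0.23 SE, adjusted p = 1), and Scap at 34.2 to 44.5 CPM (median 39.2) in powder rats, against 36.4 to 55.6 CPM (median 48.3) in oral vehicle rats (log2 -0.25 ± 0.10 SE, adjusted p = 1). Mvk lay at 43.5 to 53.8 CPM (median 46.6) in powder rats, against 32.8 to 40.0 CPM (median 36.9) in oral vehicle rats, and its groups did not overlap. Over all genes tested 0.216% stood apart in that direction. Mvk, Sqle and Msmo1 had log2 differences of 0.37, 0.51 and 0.48, each with an unadjusted p under 0.05 and an adjusted p of 1 in edgeR. Of the 30 members 23 had a higher fitted level with powder, none of them past the test. The median log2 difference was 0.23 over the members and -0.02 over all genes tested. The members were measured in the same libraries, so this count carries no test. The mean level of the 17 sterol enzymes, as the mean of log2(CPM + 1), was 5.94 to 6.20 in powder rats, against 5.56 to 5.91 in oral vehicle rats, and the groups did not overlap. Within series 1 it was 5.94 to 6.13 in powder rats, against 5.56 to 5.91 in oral vehicle rats. Within series 2 it was 6.07 to 6.20 in powder rats, against 5.70 to 5.91 in oral vehicle rats. The mean level of the 7 fatty acid genes overlapped, at 5.63 to 6.03 in powder rats and 5.62 to 5.97 in oral vehicle rats. These means are a description and carry no test. The series did not share a direction in every powder comparison. Over the 30 members the median log2 difference, powder over oral vehicle, was 0.19 in series 1 and 0.23 in series 2 for jejunum at day 7, and -0.285 and 0.06 for jejunum at day 4. For colon it was -0.39 in series 1 and 0.40 in series 2 at day 7, and -0.17 and -0.07 at day 4.

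Injection was compared with injected vehicle. Here too 0 of 30 members passed edgeR's test in any of the 4 comparisons, and 0% of all genes were called in each. DESeq2 called 0 members. At an unadjusted p under 0.05 there were 0 members in colon at day 4, 1 in colon at day 7, 1 in jejunum at day 4 and 2 in jejunum at day 7, as for 3.61%, 1.73%, 8.31% and 2.81% of all genes tested. The 95% intervals spanned at their widest -1.41 (Insig1) to 1.26 (Idi1) in jejunum at day 4 and -1.61 (Tm7sf2) to 1.17 (Idi1) at day 7. In colon they spanned -1.14 (Scd) to 1.66 (Acss2) at day 4 and -1.92 (Acss2) to 0.67 (Elovl6) at day 7.

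In colon at day 4 Scap lay at 103 to 182 CPM (median 140.5) in injection rats, against 109.5 to 157 CPM (median 116) in injected vehicle rats (log2 0.19 ± 0.10 SE, adjusted p = 0.871), and Msmo1 at 124 to 287 CPM (median 191) in injection rats, against 139.9 to 361 CPM (median 243) in injected vehicle rats (log2 -0.34 ± 0.21 SE, adjusted p = 0.871). At day 7 in that tissue Insig1 lay at 137 to 271 CPM (median 186) in injection rats, against 146 to 718 CPM (median 297) in injected vehicle rats (log2 -0.80 ± 0.35 SE, adjusted p = 1), and Acss2 at 41.7 to 119 CPM (median 57.4) in injection rats, against 47.2 to 282 CPM (median 99.6) in injected vehicle rats (log2 -0.85 ± 0.52 SE, adjusted p = 1). The groups overlapped in each case. In jejunum at day 4 Insig1 lay at 115 to 355 CPM (median 288) in injection rats, against 129 to 748 CPM (median 426) in injected vehicle rats (log2 -0.74 ± 0.32 SE, adjusted p = 0.58), and Hsd17b7 at 1.13 to 2.5 CPM (median 2.02) in injection rats, against 0.733 to 3.05 CPM (median 0.881) in injected vehicle rats (log2 0.57 ± 0.31 SE, adjusted p = 0.585). In jejunum at day 7 Acss2 lay at 19.6 to 39.3 CPM (median 31) in injection rats, against 29.3 to 51.6 CPM (median 41.1) in injected vehicle rats (log2 -0.48 ± 0.22 SE, adjusted p = 0.998), and Tm7sf2 at 10.7 to 39.8 CPM (median 22.2) in injection rats, against 14.2 to 89.3 CPM (median 27.6) in injected vehicle rats (log2 -0.81 ± 0.39 SE, adjusted p = 0.998). No member's groups stood apart between injection and injected vehicle. Over all genes tested they did for 0.00761% and 0.0685% in colon at days 4 and 7, and for 0.255% and 0.115% in jejunum.

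The oral vehicle was set against untreated irradiated rats. edgeR called 0 of 30 members in each of the 4 comparisons, and DESeq2 called 0. The share of all genes called was 0% in colon at day 4, 0.00752% in colon at day 7, 0% in jejunum at day 4 and 0.008% in jejunum at day 7. Unadjusted p under 0.05 was seen for 0 members, 1 member, 2 members and 0 members in that order, and for 2.81%, 4.82%, 9.2% and 4.69% of all genes tested. The members with the smallest p were Stard4 and Mvk in colon at day 4 (log2 0.34 and 0.18), Mvk and Acat2 in colon at day 7 (-0.41 and -0.44), Acaca and Acss2 in jejunum at day 4 (0.71 and 0.54), and Acly and Insig2 in jejunum at day 7 (0.40 and -0.40). The widest bounds of the 95% intervals were -1.20 (Insig1) and 1.49 (Fasn) in jejunum at day 4, -1.17 (Tm7sf2) and 1.18 (Idi1) at day 7, -0.83 (Scd) and 1.13 (Acss2) in colon at day 4, and -1.77 (Acss2) and 0.52 (Insig1) at day 7.

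The effect of each preparation was also compared between days, as its log2 difference at day 7 minus that at day 4. Of 30 members 0 passed in jejunum or colon for powder or injection, as did 0% of all genes in each of the 4 tests by edgeR, and DESeq2 called 0 members. At an unadjusted p under 0.05 there were 1 member for powder and 0 for injection in colon, and 3 for powder and 0 for injection in jejunum. Over all genes tested the shares were 15.8%, 3.18%, 3.25% and 4.2% in that order. The 3 in jejunum were Fdft1, Sqle and Msmo1, with differences of 0.71, 0.84 and 0.88 on the log2 scale.

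**Figure D5:**
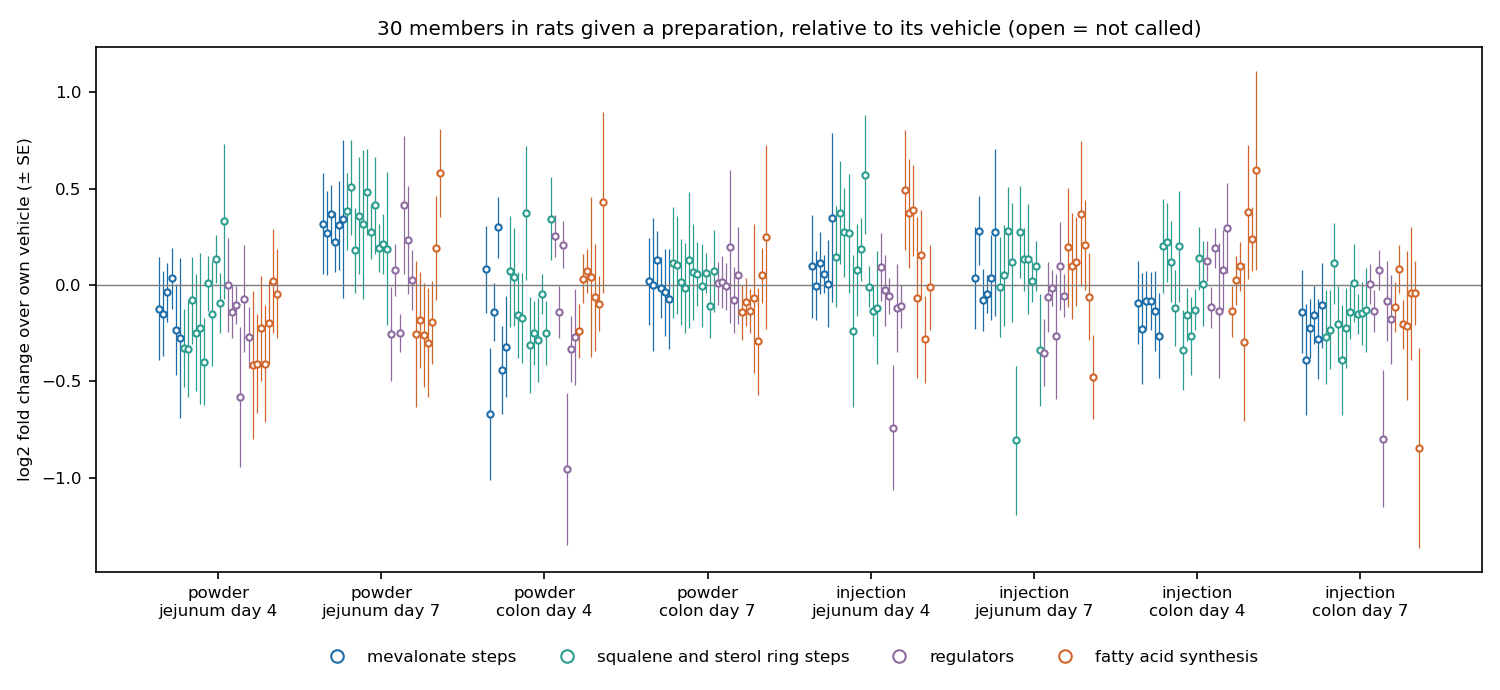
Log2 difference, with SE, of each of the 30 members in treated rats over their own vehicle, for powder and for injection in jejunum and colon at day 4 and day 7. No point passed the test. Powder in jejunum at day 7 shows 23 of 30 points above 0, where the median over all genes tested was -0.02. These points come from the same libraries, so their count carries no test.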

How the data were processed

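RNA-seq counts of 132 libraries were analysed. The authors deposited raw, unnormalized read counts for 21837 gene symbols in 2 tables. The submitters' processing notes name STAR 2.7.10a and mRatBN7.2, while the sources used here do not give the counter, annotation or strandedness. Each of the 168 columns was matched to a sample, and 36 libraries that appear in both tables entered once. From these counts edgeR 4.0.16 (R 4.3.3) gave quasi-likelihood F tests with TMM factors, filterByExpr by group and Benjamini-Hochberg adjustment over all genes tested. The fits held 42 libraries per tissue with library series as a term, 24 injected libraries per tissue, or 84 libraries of both tissues with series within tissue, and gave 33 comparisons. The SE is the log2 fold change divided by the square root of F. All 30 members passed the filter in every fit. DESeq2 1.42.0 was an alternative. The edgeR test was tried on simulated counts for the colon fit of 42 libraries and the jejunum fit of 24 injected libraries. The other fits, the differences of changes, the alternative settings and DESeq2 were not tried in this way.

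The members and gene lists were chosen with earlier results of these data known. Named are, per comparison, up to 4 called members per role with the smallest p, or the 2 with the smallest p where none was called. For time comparisons values over arms are given, and for the oral vehicle and the tissue difference log2 values alone. Of the pathway lists the 2 called genes with the smallest p are named in the irradiation comparisons, except a gene that is not reported here. Libraries of the same title number in 2 groups did not all deviate together (Pearson r from -0.762 to 0.916 over 26 comparisons, in 0 of which every pair exceeded 0.1). Title numbers were therefore not used as pairs. For colon and jejunum libraries of the same library number, r was -0.392 to 0.536 over 11 conditions. With these as blocks, edgeR called 25 members between non-irradiated tissues, and 8 and 11 for the tissue difference of irradiation at days 4 and 7. Without blocks it called 25, 8 and 9. The shares of all genes called were 71.2%, 18.6% and 38.4% with blocks, against 71.5%, 21.8% and 39.6% without. Whether colon and jejunum libraries came from the same rats is not given.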

Additional observations from a re-analysis of the deposited data

Results flagged for a closer look

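The mean level, the mean of log2(CPM + 1), was checked for sterol enzymes and for fatty acid genes in each of 22 groups. In 3 of these 44 checks 1 library stood apart from the other 5. Chance flags about 1 in 20 checks, so 3 is near the number chance gives. Replicate 3 of the powder day 4 colon had a sterol enzyme level of 6.25, replicate 6 of the injected vehicle day 4 jejunum had 5.41, and replicate 3 of the non-irradiated colon had a fatty acid level of 6.19. Without the injected vehicle library, chosen for this after the data were seen, edgeR called 26 members at day 7 over day 4 in injected vehicle jejunum and 0 members for injection over its vehicle at day 4, as with it. The shares of all genes called were 57.9% and 0.13% without it, against 50.6% and 0% with it.

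The log2 change with irradiation was tested for a difference between jejunum and colon. It differed in 8 members at day 4 and 9 at day 7. The same test called 21.8% of the 13741 genes tested at day 4 and 39.6% at day 7. Such differences were therefore not particular to the members. Jejunum minus colon, the differences at day 4 were 3.84 for Scd, 1.66 for Elovl6, 1.14 for Fasn, 1.11 for Acaca, 0.72 for Scap, -0.57 for Srebf2, -0.67 for Sc5d and -1.12 for Fdft1. At day 7 they were 2.25 for Acaca, 2.24 for Scd, 2.10 for Fasn, 1.68 for Elovl6, 1.27 for Scap, 1.00 for Hsd17b7, 0.81 for Pmvk, -0.93 for Insig2 and -1.47 for Insig1.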

How the results depend on the processing

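Of 197 counts of called members under alternative settings, 182 stayed within 1.5 times the value reported. Counts of 0 that stayed 0 are among the 182, as for the preparations, the oral vehicle and the day differences of effects. The 15 that moved are given next. With mitochondrial share as a covariate, untreated over non-irradiated colon gave 5 called members at day 4 and 0 at day 7. The shares of all genes called were 31.5% and 1.98%. Day 7 over day 4 in untreated colon gave 2, with 0.782% of all genes called. The members' median log2 changes were then -0.18, 0.63 and 0.84 in that order, against -0.21, 0.59 and 0.62 without the covariate. With library series 1 alone, the counts were 4 and 10 in jejunum and 1 and 13 in colon at days 4 and 7. The shares of all genes called were 15.0% and 26.4% in jejunum and 15.9% and 52.5% in colon. Day 7 over day 4 gave 2 in untreated jejunum (1.33% of all genes), 6 in untreated colon (30.5%) and 5 in oral vehicle jejunum (0.839%). With series 2 alone, day 7 over day 4 gave 10 in powder colon (13.5% of all genes) and 1 in oral vehicle colon (0.73%). Fitting only the 2 groups compared gave 2 for powder in colon at day 4, with 7.73% of all genes called. With the replicate block by title number, day 7 over day 4 gave 4 members in injection colon (36.8% of all genes) and 4 in injected vehicle colon (22.9%). No other count moved by over 1.5 times. With 3 libraries a group, fewer samples enter the fit; otherwise the cause was not tested. Of 1460 values of single members, 1310 kept direction and call, 141 lost the call (87 in 1 series alone, 32 with the mitochondrial share and 22 elsewhere), 1 gained it and 8 changed sign. Those 8 were Srebf1 in colon at day 7 (0.0675) and, for day 7 over day 4 in untreated colon, Scap (0.019) and Acly (-0.004325), all with the mitochondrial share. With series 1 alone they were Dhcr7 in jejunum at day 4 (0.30) and, for oral vehicle over untreated colon at day 7, Mvk (0.0479) and Acat2 (0.24). With series 2 alone they were Elovl6 for powder in colon at day 7 (0.06385) and Acly for oral vehicle over untreated jejunum at day 7 (-0.0108). No member was called with the opposite sign. TMM and RLE scaling differed by over 0.1 in the median of all genes only for the tissue difference at day 7 (0.18 with TMM and 0.07 with RLE on the log2 scale). Members with few counts, such as Scd in non-irradiated jejunum, are limited by depth.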

Other observations

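Powder over oral vehicle in colon at day 4 was the 1 preparation comparison in which other genes of the pathway passed the test. There 7 of the 54 tested passed, close to the share of all genes called, 11.8%. Mylip, a ligase acting on lipoprotein receptors, was higher (log2 0.82 ± 0.27 SE, adjusted p = 0.0423), as was Mbtps1, a protease of SREBP (log2 0.39 ± 0.09 SE, adjusted p = 0.00729). Soat2, which esterifies cholesterol, was lower (log2 -2.01 ± 0.59 SE, adjusted p = 0.0232), as were Npc1, a lysosomal cholesterol exporter (log2 -0.53 ± 0.14 SE, adjusted p = 0.0117), Elovl1 (log2 -0.81 ± 0.22 SE, adjusted p = 0.0158), Pgd (log2 -0.44 ± 0.15 SE, adjusted p = 0.0462) and Mbtps2 (log2 -0.29 ± 0.09 SE, adjusted p = 0.0356). In the other 7 comparisons of a preparation with its vehicle, edgeR called 0 of 54 such genes in colon or 55 in jejunum. In each of those 7, at most 0.008% of all genes were called.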
